A study of Homo sapiens with 12 samples.

Results

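The EGFR family consists of receptor tyrosine kinases at the cell surface and the small growth factors that switch them on. EGFR binds EGF-type ligands such as amphiregulin, transforming growth factor alpha and epigen, while heparin-binding EGF-like growth factor, epiregulin and betacellulin bind EGFR and ERBB4. Neuregulins bind ERBB3 and ERBB4, and ERBB2, which has no known soluble ligand of its own, pairs with the other receptors and signals with them. The ligands are made as membrane-anchored precursors that metalloproteases of the ADAM family cut loose, so that one cell can stimulate itself or its neighbours. In breast epithelium amphiregulin is known for its part in the growth of the ducts.

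Measured here were 10 human genes of this family, chosen by symbol among the 58243 human genes listed and with earlier results of these data known. They were 3 receptors (EGFR, ERBB2 and ERBB3), 6 EGF-type ligands (EREG, AREG, HBEGF, TGFA, BTC and EPGN) and 1 neuregulin (NRG1). All 10 passed the filter on low counts that left 18628 human genes to test. ERBB4, EGF, NRG2, NRG3 and NRG4 of the same family are described apart below, and none of them passed in any comparison. Counts of members called are therefore descriptions of chosen genes and not a test of the family. RNA was sequenced from 12 tumours that the human breast line MCFDCIS formed under the skin of athymic nude mice, which lack mature T cells. The 4 groups of 3 tumours were palbociclib recovery (2 weeks of palbociclib, then a recovery period of a length not given), vehicle recovery (2 weeks of vehicle, then recovery), palbociclib initial (taken after 2 weeks of palbociclib) and vehicle initial (taken after 2 weeks of vehicle). Palbociclib, which inhibits the cell cycle kinases CDK4 and CDK6, was given daily by mouth at 50 mg/kg to tumours that had been allowed 2 weeks to establish. All tumours come from 1 cell line, and the labels do not say whether each tumour is from a separate animal, so p-values measure the spread between tumours.

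Counts assigned to human genes ranged from 6613880 to 12352064 per tumour. Epithelial and basal markers were abundant in all 12 tumours, with KRT5 between 976 and 1914 CPM (counts scaled to library size) and EPCAM between 123 and 286 CPM. Of 12 human markers of immune, vascular and fat cells, 9 stayed at or below 2 CPM in every tumour, and ADIPOQ, CD3E and MS4A1 had no count in 11 tumours each. The exceptions were PECAM1, CSF1R and PLIN1. The list summed to 73.0 to 123 CPM in palbociclib initial against 54.8 to 70.8 CPM in vehicle initial tumours. Most of that sum was PECAM1, at 65.0 to 114 CPM in palbociclib initial and 43.4 to 62.6 CPM in vehicle initial tumours. The part of this list in the results below was not tested. The mitochondrial share of human counts was 5.32% and 11.2% in vehicle initial tumours 2 and 3, and at most 2.64% in the other 10. Most of it in these 2 was mitochondrial ribosomal RNA, at 4.61% and 10.6%. They also had the highest shares of counts on rows that name no gene, 61.9% and 69.1%. Vehicle initial tumour 3 had the fewest human counts. Vehicle recovery tumour 2 had the lowest share on rows that name no gene, 37.0%. On the leading principal component vehicle recovery tumour 2 stood at 113, and the other 11 between -37.6 and 14.2.

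At the end of treatment the ligands EREG and HBEGF fell in palbociclib tumours, and AREG was lower in every palbociclib tumour without passing the test. NRG1 was higher in every palbociclib tumour and did not pass either. The 3 receptors and TGFA, BTC and EPGN did not pass. So 2 of 10 members were called, both lower, against 1.84% of all 18628 genes (1.7% lower and 0.14% higher). The test was edgeR's quasi-likelihood test, and a gene is said to pass, to rise or to fall when its Benjamini-Hochberg adjusted p over all human genes is under 0.05. The 4 basal epithelial markers summed to 5907 to 6693 CPM in palbociclib initial against 4896 to 5201 CPM in vehicle initial tumours. KRT5 rose, with a log2 fold change of 0.74 ± 0.17 (SE, adjusted p = 0.040 by edgeR), KRT14 and KRT17 were higher in every palbociclib tumour without passing, and TP63 overlapped. Their part in the ligand results was not tested. In bulk tumours a lower level in each cell and fewer cells that express a gene cannot be told apart.

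EREG encodes epiregulin. It stood at 50.4, 53.5 and 59.8 CPM in the palbociclib initial tumours, against 121, 235 and 155 CPM in the vehicle initial tumours. The groups did not overlap, and the palbociclib tumours lay far closer together. The log2 fold change was -1.64 ± 0.33 (SE, adjusted p = 0.029 by edgeR). The call was lost without any 1 of palbociclib initial tumours 1, 2 and 3 (edgeR adjusted p = 0.14, 0.11 and 0.12) or of vehicle initial tumours 2 and 3 (adjusted p = 0.11 and 0.059), while the value stayed between -1.83 and -1.34. Vehicle initial tumours 2 and 3, with the high mitochondrial shares, were also the higher ones for EREG; without both the log2 fold change was -1.15 (edgeR adjusted p = 0.65), with the 1 remaining vehicle tumour assumed to vary like the other groups. The share of counts on mouse genes was 16.95%, 17.6% and 25.4% in palbociclib initial and 16.5%, 15.5% and 17.4% in vehicle initial tumours, and with it as a covariate EREG was at -1.65 (edgeR adjusted p = 0.17).

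HBEGF encodes heparin-binding EGF-like growth factor. The palbociclib initial tumours held 11.98, 11.02 and 12.3 CPM and the vehicle initial tumours 23.8, 52.8 and 37.5 CPM. The groups did not overlap, and again the spread was among the vehicle tumours. The log2 fold change was -1.68 ± 0.23 (SE, adjusted p = 0.0013 by edgeR), and HBEGF passed in all 7 fits without 1 tumour, either one of the 6 compared or vehicle recovery tumour 2. Without vehicle initial tumours 2 and 3 together it was at -1.02 (edgeR adjusted p = 0.060).

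AREG encodes amphiregulin. The palbociclib initial tumours held 32.8, 49.0 and 53.4 CPM, against 94.3, 157 and 91.5 CPM in the vehicle initial tumours. The groups did not overlap, as held for 11.3% of all genes in this direction and 20.7% in either. The log2 fold change of -1.34 ± 0.40 did not pass (SE, adjusted p = 0.18 by edgeR), although DESeq2 called it (adjusted p = 0.011).

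The 4 promoters below are shown because EREG, AREG and HBEGF were lower together at the end of treatment while TGFA was not. Each is the run of 250 bases before the transcription start, from RefSeq on GRCh38.p14, 5′ to 3′ on the gene's strand, at chr4:74364895-74365144 (plus) for EREG, chr4:74444886-74445135 (plus) for AREG, chr5:140346604-140346853 (minus) for HBEGF and chr2:70553827-70554076 (minus) for TGFA. Capitals mark matches on either strand. The motifs searched were the box near the start that spells TATAAA, the cyclic AMP response element TGACGTCA, the GC box with letters GGGCGG, the site of the factor AP-1 with letters TGANTCA, and the CArG box by name. Neighbouring GC boxes can overlap.
EREG: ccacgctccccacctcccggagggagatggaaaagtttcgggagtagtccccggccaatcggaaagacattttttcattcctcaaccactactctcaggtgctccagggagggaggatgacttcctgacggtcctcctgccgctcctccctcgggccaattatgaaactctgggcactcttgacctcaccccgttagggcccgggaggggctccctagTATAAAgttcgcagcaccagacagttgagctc
AREG: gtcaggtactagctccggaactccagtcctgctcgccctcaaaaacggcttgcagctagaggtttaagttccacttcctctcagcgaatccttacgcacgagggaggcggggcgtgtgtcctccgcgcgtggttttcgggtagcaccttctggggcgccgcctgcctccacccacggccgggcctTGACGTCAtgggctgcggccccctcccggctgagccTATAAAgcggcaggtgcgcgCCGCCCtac
HBEGF: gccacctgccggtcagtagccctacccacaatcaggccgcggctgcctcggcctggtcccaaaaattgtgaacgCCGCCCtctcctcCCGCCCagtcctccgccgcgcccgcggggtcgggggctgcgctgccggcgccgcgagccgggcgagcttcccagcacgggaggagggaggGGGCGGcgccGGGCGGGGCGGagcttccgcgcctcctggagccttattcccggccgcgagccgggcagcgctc
TGFA: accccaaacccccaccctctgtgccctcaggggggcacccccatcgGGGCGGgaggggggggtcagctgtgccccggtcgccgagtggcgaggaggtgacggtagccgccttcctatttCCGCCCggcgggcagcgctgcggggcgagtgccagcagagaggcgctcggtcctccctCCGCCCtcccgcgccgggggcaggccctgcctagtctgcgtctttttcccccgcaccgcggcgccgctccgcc
EREG, AREG and EPGN each held the TATA box, 32, 29 and 29 bases before the start. So did the second window of EGFR, at 146 and 36 bases, and 10.7% of 35116 promoter windows of this length. HBEGF held GC boxes at 5 places and the first window of TGFA at 3, and neither held a TATA box. The second window of TGFA held none of the motifs. AREG held 1 GC box, 9 bases before the start, and the first window of EGFR held 2, where 42.6% of windows held one. AREG alone of the 8 members with a window held the cyclic AMP response element, 65 bases before the start, found in 1.65% of windows. None of these 4 windows held the AP-1 motif, which 6.57% of windows held, or the CArG box, which 1.16% held. Of the 8 members, 2 held the AP-1 motif: the second window of EGFR at 232 and 136 bases, and ERBB2 at 222 bases. A match describes the letters only. Windows were matched for all members but ERBB3 and NRG1.

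**Figure D1:**
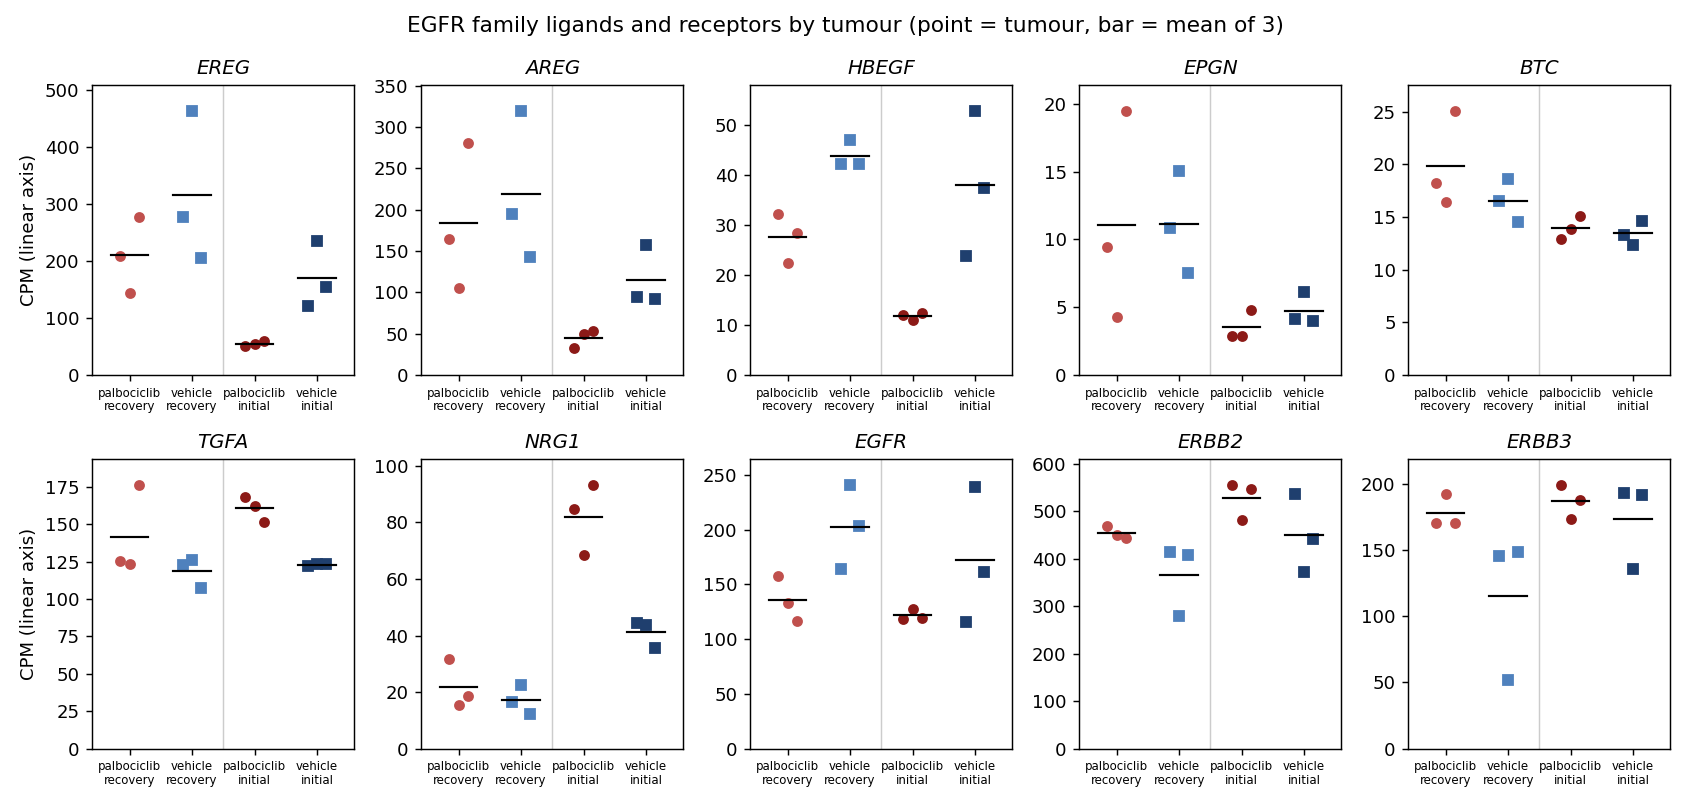
CPM of the 10 genes on linear axes from 0, with 1 point per tumour and a bar at the mean of 3; columns run palbociclib recovery, vehicle recovery, palbociclib initial and vehicle initial. EREG, AREG and HBEGF are lowest in the 3 palbociclib initial tumours, where NRG1 is highest at 68.4 to 93.2 CPM.

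Of the other EGF-type ligands none passed. TGFA encodes transforming growth factor alpha, and its level was 168, 162 and 151 CPM in palbociclib initial tumours, against 122, 124 and 124 CPM in vehicle initial tumours. The palbociclib tumours were all higher, as held for 9.39% of all genes, by a log2 fold change of 0.39 ± 0.13 that did not pass (SE, adjusted p = 0.26 by edgeR) but passed with only the 2 groups in the fit (adjusted p = 0.023). BTC, which encodes betacellulin, was at 12.9, 13.9 and 15.1 CPM in palbociclib initial and 13.3, 12.4 and 14.7 CPM in vehicle initial tumours, which overlapped. EPGN, which encodes epigen, was the least abundant, at 2.84, 2.88 and 4.81 CPM in palbociclib initial and 4.15, 6.13 and 3.94 CPM in vehicle initial tumours. Its groups overlapped too, with a log2 fold change of -0.43 ± 0.50, the widest standard error of the 10 members here, and 25 to 230 counts per tumour over the 12 tumours. The 6 EGF-type ligands had a median log2 fold change of -0.89, where all genes had one of 0.00, and TGFA and BTC were positive. These 6 were chosen with earlier results of these data known and leave out EGF, at 1.29. The median is therefore a description and not a test.

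NRG1 encodes neuregulin 1. It was measured at 84.6, 68.4 and 93.2 CPM in palbociclib initial tumours, against 44.5, 43.7 and 35.6 CPM in vehicle initial tumours. The groups did not overlap, with a log2 fold change of 0.99 ± 0.25 that did not pass (SE, adjusted p = 0.081 by edgeR). It was called by DESeq2 (adjusted p = 0.011) and by edgeR with only the 2 groups in the fit (adjusted p = 0.00032), and over the 7 fits without 1 tumour its log2 fold change ran from 0.89 to 1.11. Without vehicle initial tumours 2 and 3 it was 0.88 (edgeR adjusted p = 0.96).

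None of the receptors passed at the end of treatment. EGFR, the receptor of the EGF-type ligands, stood at 118, 127 and 119 CPM in palbociclib initial tumours, against 116, 239 and 161 CPM in vehicle initial tumours. The groups overlapped, and the log2 fold change of -0.50 ± 0.22 (SE, adjusted p = 0.47 by edgeR) was 0.07 without vehicle initial tumours 2 and 3. ERBB2, the shared partner receptor, was at 555, 482 and 547 CPM in palbociclib initial and 536, 371 and 442 CPM in vehicle initial tumours. ERBB3, the neuregulin receptor that signals mainly through its partners, was at 199, 173 and 188 CPM in palbociclib initial and 193, 135 and 191 CPM in vehicle initial tumours. Both overlapped between groups, with log2 fold changes of 0.23 ± 0.16 and 0.11 ± 0.30 (SE, adjusted p = 0.75 and 0.97 by edgeR) that turned to -0.02 and -0.05 without vehicle initial tumours 2 and 3. ERBB3 also turned, to -0.04, without vehicle initial tumour 2 alone.

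**Figure D2:**
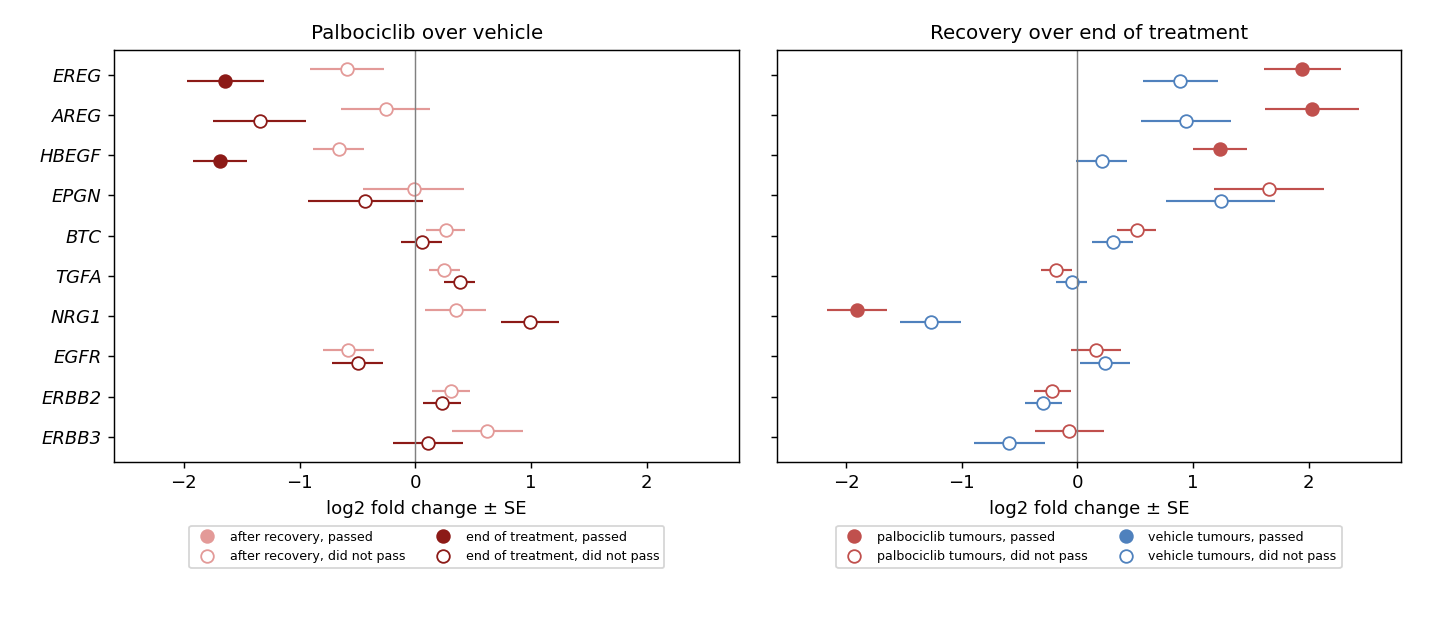
log2 fold changes with their standard errors from the fit over all 12 tumours, palbociclib over vehicle on the left and recovery over end of treatment on the right; filled points passed. At the end of treatment EREG and HBEGF pass at -1.64 and -1.68, and over time in palbociclib tumours EREG, AREG, HBEGF and NRG1 pass.

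The recovery groups asked what remained of these differences after a recovery period. None of the 10 members passed, while 0.00537% of all genes (1 gene) passed by edgeR and 1613 of 18628 had an unadjusted p under 0.05. The groups did not overlap for 4 members, EGFR and HBEGF lower and ERBB2 and ERBB3 higher, and for 11.8% of all genes (6.32% higher and 5.51% lower). By DESeq2 no member was called either, but with no filter on low counts EGFR, ERBB3, EREG and HBEGF passed (edgeR adjusted p = 0.013, 0.0026, 0.0083 and 0.011). No other fit called any of them after recovery. The same unfiltered fit put AREG at the end of treatment at an edgeR adjusted p of 1.09e-14, against 0.18 with the filter. Calls made only by that fit are not read as results here.

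HBEGF was at 32.3, 22.5 and 28.3 CPM in palbociclib recovery tumours, against 42.2, 47.0 and 42.3 CPM in vehicle recovery tumours. Every palbociclib tumour remained below every vehicle tumour, with a log2 fold change of -0.66 ± 0.22 (SE, adjusted p = 0.57 by edgeR). EREG was at 209, 143 and 278 CPM in palbociclib recovery and 277, 463 and 206 CPM in vehicle recovery tumours, and the groups overlapped. AREG was at 165, 105 and 281 CPM in palbociclib recovery and 194, 319 and 143 CPM in vehicle recovery tumours. Vehicle recovery tumour 2, the one apart on the leading principal component, held the highest EREG and AREG of all 12 tumours, and without it the log2 fold change of EREG was -0.20 instead of -0.59 and that of AREG 0.12 instead of -0.26.

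EPGN, NRG1, BTC and TGFA overlapped between palbociclib and vehicle recovery tumours. EPGN was at 9.44, 4.26 and 19.5 CPM in palbociclib recovery and 10.8, 15.1 and 7.52 CPM in vehicle recovery tumours, with no direction that held when single tumours were left out. NRG1 was at 31.7, 15.4 and 18.5 CPM in palbociclib recovery and 16.6, 22.3 and 12.3 CPM in vehicle recovery tumours. Its log2 fold change was 0.35 ± 0.26, and it was -0.02 without palbociclib recovery tumour 1. BTC was at 18.2, 16.4 and 25.0 CPM in palbociclib recovery and 16.5, 18.6 and 14.5 CPM in vehicle recovery tumours. TGFA was at 125, 124 and 176 CPM in palbociclib recovery and 123, 126 and 108 CPM in vehicle recovery tumours, so that palbociclib recovery tumour 3 was the highest of its group for EREG, AREG, EPGN, BTC and TGFA.

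The receptors all stood apart between the recovery groups, each and none passed. EGFR was at 158, 133 and 117 CPM in palbociclib recovery, against 164, 241 and 203 CPM in vehicle recovery tumours, a log2 fold change of -0.58 ± 0.22 (SE, adjusted p = 0.57 by edgeR). ERBB2 was at 469, 450 and 443.8 CPM in palbociclib recovery, against 413, 279 and 408 CPM in vehicle recovery tumours. ERBB3 was at 170, 193 and 171 CPM in palbociclib recovery, against 146, 52.1 and 148 CPM in vehicle recovery tumours. EGFR was lower in every palbociclib tumour, and ERBB2 and ERBB3 were higher in every one, with log2 fold changes of 0.31 ± 0.16 and 0.62 ± 0.30 (SE, adjusted p = 0.58 for both by edgeR). Vehicle recovery tumour 2 had the highest EGFR and the lowest ERBB2 and ERBB3 of the 12 tumours; without it the values were -0.43, 0.15 and 0.28.

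The change of the drug effect between the stages was tested directly, as the effect after recovery minus the effect at the end of treatment. No member passed, by edgeR or by DESeq2, while 0.22% of all genes did. The differences were 1.05 ± 0.46 for EREG, 1.09 ± 0.55 for AREG and 1.02 ± 0.32 for HBEGF on the log2 scale (SE, adjusted p = 0.94, 0.95 and 0.53 by edgeR). That of NRG1 was -0.64 ± 0.36 (adjusted p = 0.95). So the calls at the end of treatment and their absence after recovery are not shown to differ. In the alternative fits the differences ran from 0.56 to 1.11 for EREG, 0.80 to 1.14 for AREG and 0.35 to 1.06 for HBEGF. Without the vehicle initial tumours of high mitochondrial share, EREG and HBEGF had smaller effects at the end of treatment, as given above. The differences of EREG and HBEGF therefore rest in part on those tumours. With no filter on low counts EREG, AREG and HBEGF did pass (edgeR adjusted p = 0.000445, 0.000229 and 0.0089), and in no other fit. That is the unfiltered fit whose p-values were far smaller for AREG, as given above.

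Within palbociclib tumours, recovery tumours were set against end-of-treatment tumours, which are the same 3 tumours that entered the first comparison. EREG, AREG and HBEGF rose and NRG1 fell, 4 of 10 members against 2.82% of all genes (2.36% higher and 0.467% lower). EREG averaged 210 ± 67.4 CPM in palbociclib recovery and 54.6 ± 4.76 CPM in palbociclib initial tumours (SD, n = 3 each), a log2 fold change of 1.94 ± 0.34 (SE, adjusted p = 0.0094 by edgeR). AREG averaged 183 ± 89.3 CPM in palbociclib recovery and 45.1 ± 10.9 CPM in palbociclib initial tumours, a log2 fold change of 2.03 ± 0.40 (SE, adjusted p = 0.024 by edgeR). HBEGF averaged 27.7 ± 4.91 CPM in palbociclib recovery and 11.8 ± 0.674 CPM in palbociclib initial tumours, a log2 fold change of 1.23 ± 0.23 (SE, adjusted p = 0.0098 by edgeR). None of these 3 genes overlapped between the groups, as held for 29% of all genes (14.9% higher and 14.2% lower).

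NRG1 moved the other way. It averaged 21.9 ± 8.65 CPM in palbociclib recovery and 82.1 ± 12.6 CPM in palbociclib initial tumours (SD, n = 3 each), a log2 fold change of -1.91 ± 0.26 (SE, adjusted p = 0.0014 by edgeR). NRG1 passed in all 7 fits without 1 tumour. EREG lost the call without palbociclib initial tumour 1 (adjusted p = 0.059) and HBEGF without that tumour or palbociclib recovery tumour 1 (adjusted p = 0.057 and 0.050). AREG passed in 3 of the 7 fits, and lost the call without any 1 of palbociclib initial tumours 1, 2 and 3 or palbociclib recovery tumour 3 (adjusted p = 0.12, 0.079, 0.076 and 0.062). EPGN, at 1.65 ± 0.47, and BTC, at 0.51 ± 0.17, did not pass by edgeR (adjusted p = 0.10 and 0.17), though DESeq2 called EPGN. TGFA and the receptors lay between -0.22 and 0.16.

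Within vehicle tumours no member passed in the same comparison, as no gene did by edgeR, where 2688 of 18628 genes had an unadjusted p under 0.05 and DESeq2 called 83. NRG1 averaged 17.1 ± 5.03 CPM in vehicle recovery and 41.3 ± 4.89 CPM in vehicle initial tumours (SD, n = 3 each), which did not overlap. Its log2 fold change of -1.27 ± 0.26 did not pass by edgeR (SE, adjusted p = 0.23) and was called by DESeq2 (adjusted p = 0.0059), which called no other member. EREG was at 0.89 ± 0.32, AREG at 0.94 ± 0.39 and EPGN at 1.24 ± 0.47 over time in vehicle tumours, all without passing, and HBEGF at 0.21 ± 0.22. Without vehicle initial tumours 2 and 3, HBEGF was at 0.88 and EREG at 1.39 over time in vehicle tumours. The small value of HBEGF therefore depended on these 2 tumours. EPGN did not overlap between the vehicle stages, as held for 14.7% of all genes (6.7% higher and 8.03% lower). The change over time in palbociclib tumours minus that in vehicle tumours is the difference of drug effects given above, and it did not pass for any member.

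**Figure D3:**
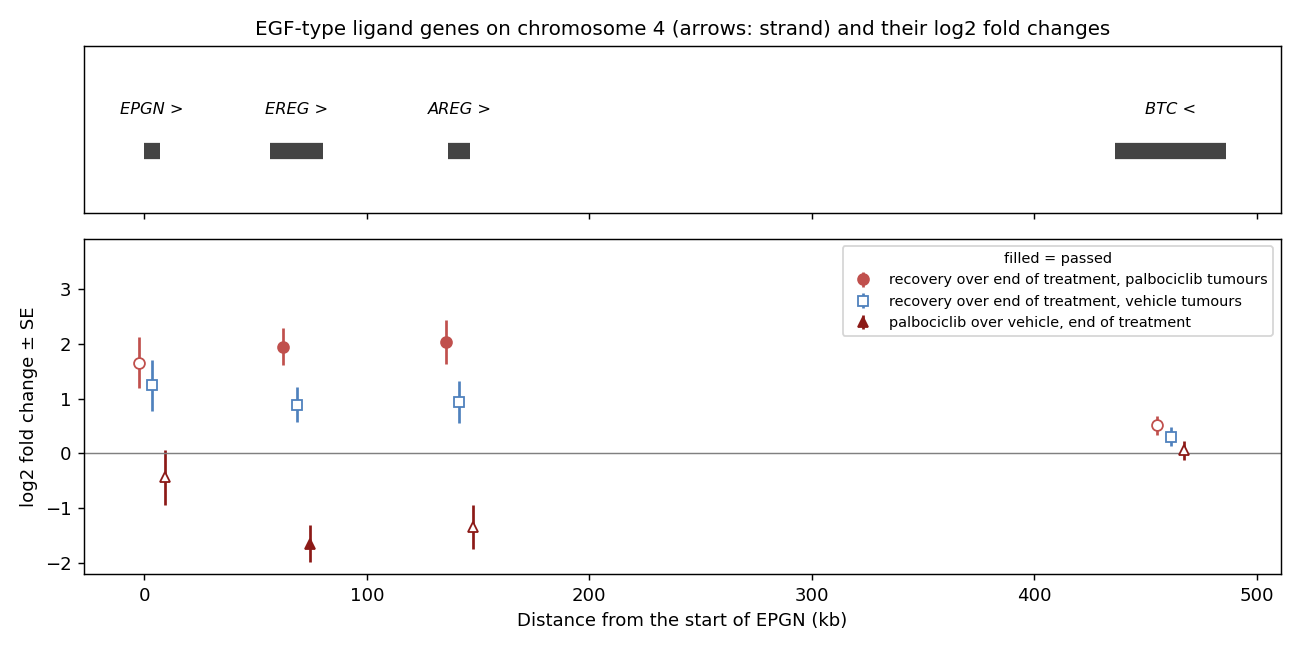
The 4 EGF-type ligand genes of chromosome 4 by distance in kb from the start of EPGN (top, arrows give the strand) and their log2 fold changes with standard errors (bottom; filled points passed). All 4 have positive values over time in both treatments, and EREG and AREG pass in palbociclib tumours; BTC, further along and on the other strand, is at 0.51 there.

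EPGN, EREG, AREG and BTC are neighbours on chromosome 4, with no other protein-coding gene between them in GENCODE 29. On GRCh38 EPGN spans chr4:74308473-74315307, EREG chr4:74365143-74388751 and AREG chr4:74445134-74455009 on the plus strand, and BTC chr4:74744759-74794686 on the minus strand. Gaps of 49.8 and 56.4 kb separate the first 3 genes, and 290 kb lie between AREG and BTC. All 4 had positive log2 fold changes over time in both treatments, of which those of EREG and AREG in palbociclib tumours passed, and so had HBEGF on another chromosome. HBEGF, which fell with EREG, lies elsewhere, at chr5:140332843-140346631 on the minus strand, as do TGFA at chr2:70447280-70554193 (minus) and NRG1 at chr8:31639386-32767959 (plus). The receptors are at chr7:55019021-55211628 for EGFR, chr17:39687914-39730426 for ERBB2 and chr12:56076799-56103505 for ERBB3, all on the plus strand. Where strand was not used in counting, reads from stretches where genes overlap cannot be told apart by strand. How such reads were counted was not given. Of the genes that overlap members, PGAP3 and MIEN1 had summed counts of 5.33% and 4.67% of those of ERBB2, and EGFR-AS1 1.96% of those of EGFR. These shares compare whole genes and do not measure shared reads.

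Levels of different genes were compared per length, as CPM per kilobase of annotated exon (RPKM). In palbociclib initial tumours ERBB2 was the highest at 51.2 ± 3.89 RPKM, followed by TGFA at 32.4 ± 1.74, AREG at 27.3 ± 6.60 and ERBB3 at 20.7 ± 1.43 RPKM (SD, n = 3). In vehicle initial tumours AREG led at 69.4 ± 22.6 RPKM, ahead of ERBB2 at 43.6 ± 8.02, EREG at 29.8 ± 10.2 and TGFA at 24.8 ± 0.210 RPKM. TGFA and AREG overlapped in palbociclib initial tumours, as did AREG and ERBB3, and in vehicle initial tumours EREG overlapped both ERBB2 and TGFA. AREG led in both recovery groups as well, at 111 ± 54.2 RPKM in palbociclib recovery and 133 ± 54.9 RPKM in vehicle recovery tumours, and its range did not reach that of the next gene in either. At the low end NRG1 was the lowest of the 10 in both recovery groups, at 1.93 ± 0.763 RPKM in palbociclib recovery and 1.51 ± 0.444 RPKM in vehicle recovery tumours, but stood above BTC, HBEGF and EPGN in palbociclib initial tumours at 7.25 ± 1.11 RPKM. The exons annotated for NRG1 come from many transcripts and add up to 11328 bases, so its level per length depends on which transcripts were made, which was not tested.

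**Figure D4:**
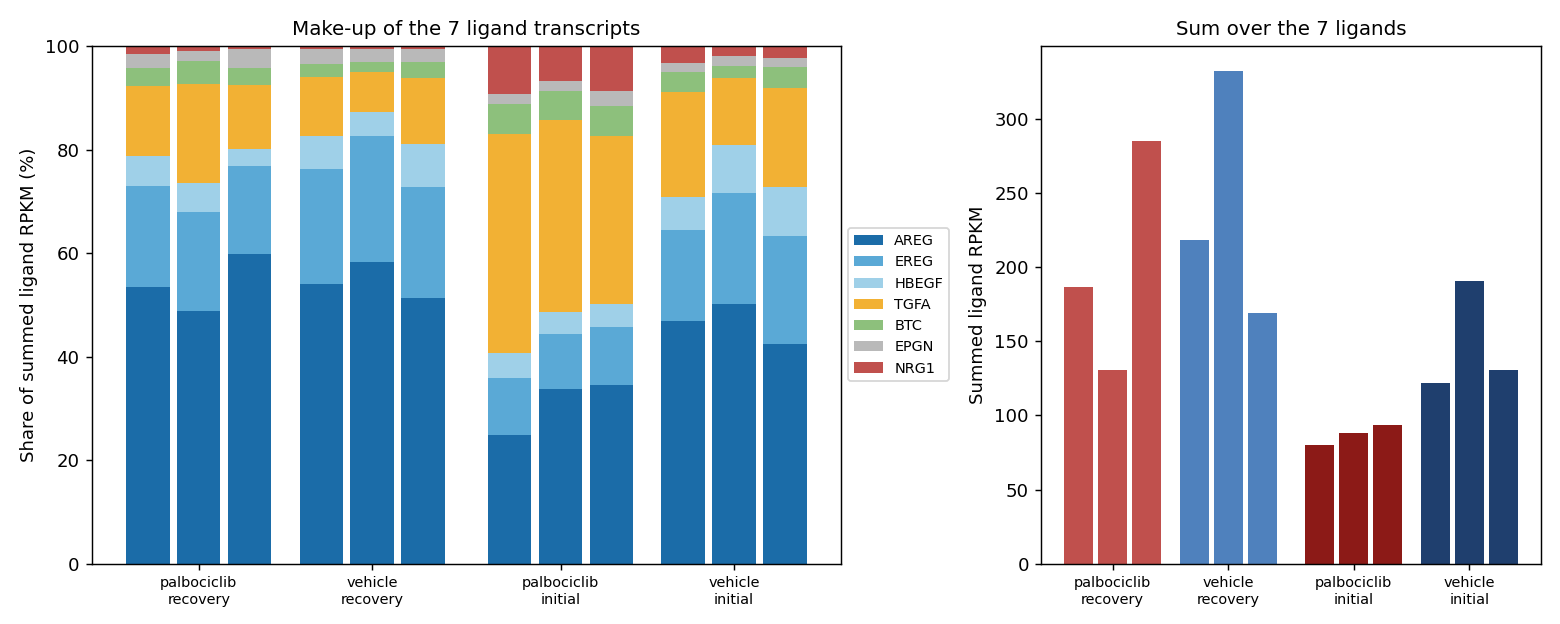
Left, the share of each of 7 ligand genes in their summed RPKM, with 1 stacked bar per tumour; right, that sum in RPKM. In the palbociclib initial tumours the sum is 80.2 to 93.7 RPKM, TGFA takes 32.5% to 42.3% and NRG1 6.86% to 9.31%.

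Together the 7 ligand genes summed to 87.3 ± 6.77 RPKM in palbociclib initial and 148 ± 37.5 RPKM in vehicle initial tumours (SD, n = 3 each), without overlap. After recovery the sums were 201 ± 78.2 RPKM in palbociclib and 240 ± 83.8 RPKM in vehicle tumours, which overlapped. AREG took 31.1% ± 5.45 of the sum in palbociclib initial tumours and 46.5% ± 3.81 in vehicle initial tumours, and TGFA took 37.3% ± 4.88 in palbociclib initial and 17.4% ± 3.82 in vehicle initial tumours. TGFA was the ligand with the largest share in palbociclib initial tumours 1 and 2, and AREG in the other 10 tumours. NRG1 took 8.32% ± 1.29 in palbociclib initial and 2.55% ± 0.613 in vehicle initial tumours, and 1.04% ± 0.462 in palbociclib recovery and 0.636% ± 0.0390 in vehicle recovery tumours. These sums and shares are descriptions without a test, since shares of 1 total move together.

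**Figure D5:**
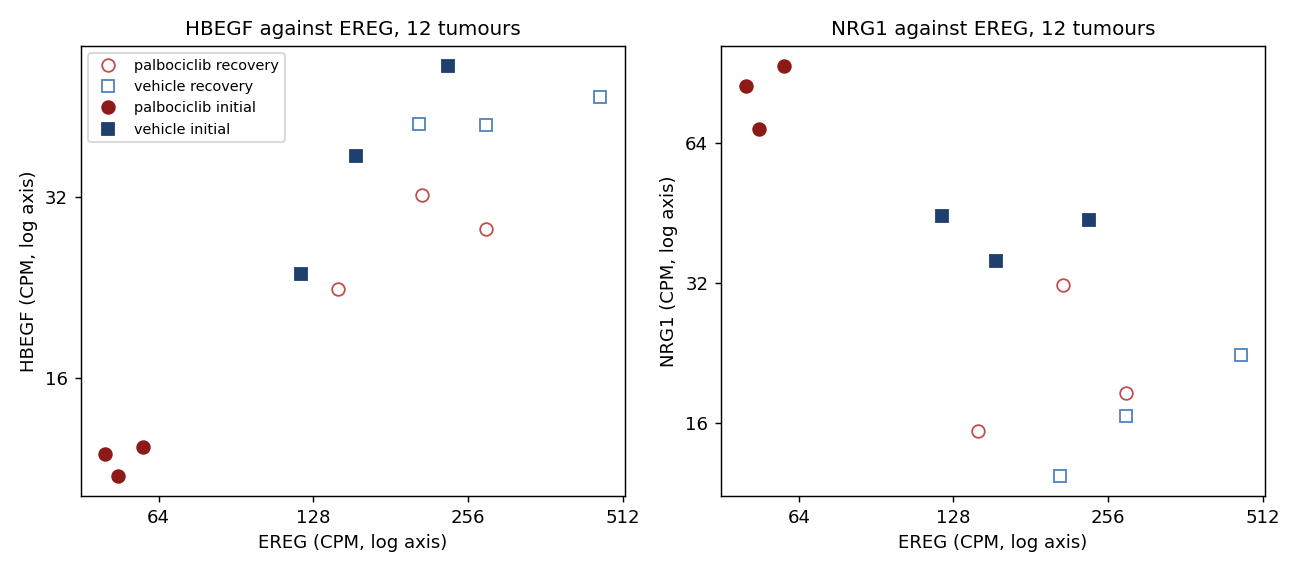
HBEGF (left) and NRG1 (right) against EREG in CPM on log axes, 1 point per tumour. The 3 palbociclib initial tumours sit apart from the other 9, at 50.4 to 59.8 CPM of EREG, 11.02 to 12.3 CPM of HBEGF and 68.4 to 93.2 CPM of NRG1.

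The genes whose log2 CPM followed EREG most closely over the 12 tumours, among 14290 genes outside the lists, were SLC26A6, an anion transporter, with Pearson's r = 0.989, then ASAP2 at 0.974, the cell cycle repressor E2F7 at 0.970, FAM83G at 0.965 and CDCA4 at 0.961. For HBEGF they were PFKFB4, a regulator of glycolysis, at 0.967, the chemokine CXCL1 at 0.964, the enolase ENO2 at 0.962, ASAP2 at 0.958 and the ion channel TRPV3 at 0.957. For NRG1 they were NTNG1 at 0.971, the chemokine CXCL14 at 0.946, VAV3 and the fatty acid transporter SLC27A1, both at 0.935, and TBC1D4 at 0.934. ASAP2 is on both of the first 2 lists, and none of the NRG1 list is on either. These correlations are descriptions over tumours that fall into 4 groups and share their library sizes.

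Of 46 other genes of the pathway 45 were tested, and none passed at the end of treatment, after recovery or in the difference between the effects. Their median log2 fold change was -0.01 at the end of treatment, and it was -0.08 after recovery. Among the remaining receptor and ligands, the receptor ERBB4 was at 13.7, 13.2 and 13.8 CPM in palbociclib initial, against 8.38, 6.76 and 9.15 CPM in vehicle initial tumours. The ligand EGF itself was at 4.35, 3.30 and 3.27 CPM in palbociclib initial, against 1.30, 1.502 and 1.73 CPM in vehicle initial tumours. Neither gene overlapped between the groups, as held for 9.39% of all genes in this direction. Neither passed, with log2 fold changes of 0.74 ± 0.36 and 1.29 ± 0.35 (SE, adjusted p = 0.54 and 0.10 by edgeR). EGF had few reads, 115 counts over the palbociclib initial and 38 over the vehicle initial tumours. NRG3 had at most 1 count per tumour and was not tested, and NRG2 and NRG4 were at 0.22 ± 0.23 and -0.29 ± 0.16. NRG4 was lower in every palbociclib initial tumour, as held for 11.3% of all genes, and did not pass.

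Of 11 genes of ligand shedding and processing none passed in any of the 5 comparisons. ADAM17, the main protease that releases several EGF-type ligands, was at -0.19 ± 0.18 at the end of treatment, and the recovery groups gave -0.48 ± 0.18. ADAM10 was at 0.00 ± 0.19 and -0.30 ± 0.19 in these comparisons. ADAM8 had the smallest p of the list, at -0.72 ± 0.18 at the end of treatment (SE, adjusted p = 0.064 by edgeR) and -0.66 ± 0.17 after recovery (adjusted p = 0.57). It was at 7.37, 5.87 and 8.28 CPM in palbociclib initial and 11.8, 11.4 and 12.5 CPM in vehicle initial tumours, and was lower in every palbociclib tumour at both stages. So was ADAM19, at -0.95 ± 0.49 at the end of treatment and -1.23 ± 0.48 in the recovery groups (SE, adjusted p = 0.59 and 0.57 by edgeR). Being lower without overlap held for 11.3% of all genes between the initial groups and for 5.51% between the recovery groups. ADAM15 went the other way in the recovery groups, at 0.46 ± 0.16 (SE, adjusted p = 0.57 by edgeR). It was higher there without overlap, as held for 6.32% of all genes. Over time ADAM19 was higher without overlap in both treatments, at 1.25 ± 0.49 in palbociclib and 1.52 ± 0.49 in vehicle tumours, and did not pass. The same held for ADAM8, at 0.41 ± 0.18 and 0.35 ± 0.17, and for ADAM9, at 0.38 ± 0.12 and 0.44 ± 0.12. Of all genes, 14.9% were higher without overlap in palbociclib and 6.7% in vehicle tumours.

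In the list of receptor restraint and turnover 1 of 12 genes passed, in 1 comparison. ERRFI1, which encodes an inhibitor that binds the EGFR kinase domain, was at 633, 645 and 590 CPM in palbociclib recovery, against 415, 465 and 477 CPM in palbociclib initial tumours. It rose between these groups, with a log2 fold change of 0.46 ± 0.10 (SE, adjusted p = 0.027 by edgeR). Vehicle initial tumours held 594, 620 and 605 CPM, and the comparison of palbociclib with vehicle at the end of treatment gave -0.42 ± 0.10 without passing (adjusted p = 0.054). None of 14 adaptors and none of 4 ligand co-receptors passed in any comparison, with values between -0.19 and 0.22 at the end of treatment over both lists. At the end of treatment GAB1 had the smallest p among the adaptors, at 0.22 ± 0.12, and CD9 among the co-receptors, at 0.18 ± 0.11. Over the 5 comparisons it was NCK2 within vehicle tumours, at 0.42 ± 0.13, and SDC4 within palbociclib tumours, at 0.38 ± 0.14 (SE, adjusted p = 0.32 and 0.21 by edgeR).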

How the data were processed

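The deposited files hold read counts per gene for each of 12 tumours, made by the authors from total RNA with TruSeq libraries, per the labels' protocols. CASAVA 1.8, cutadapt, STAR, edgeR and the builds GRCh38 and GRCm38 are named in the submitters' processing notes. The counting program, its strand setting and the annotation release were not given in the sources used here. Left out were the 4 rows per file that name no gene, which held 37.0% to 69.1% of all counts in a file, and the mouse genes; 713 repeated rows were removed. Human identifiers were named by GENCODE 29, which matched 57980 of 58243.

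CPM and RPKM were computed here from TMM-scaled human counts. Genes were filtered with filterByExpr (minimum count 10, total 15) and tested with edgeR 4.0.16 in R 4.3.3 (limma 3.58.1), by a quasi-likelihood fit over all 4 groups, with 5 contrasts, Benjamini-Hochberg adjustment over 18628 genes and a threshold of 0.05. DESeq2 1.42.0 and other scalings, filters and sample sets were alternatives. Comparisons share tumours: each group enters several contrasts. The fit was tested on simulated data. Replicate numbers follow accession order and pair nothing. Every member is named whatever its result. Of other pathway genes, those that passed or had the smallest p of their list were named. Others were chosen after their values were seen (ERBB4, NRG2, NRG4, ADAM9, ADAM10, ADAM15, ADAM17 and ADAM19). The members and lists were chosen with earlier results of these data known. Likeness used genes with a mean log2 CPM of at least 1, with a prior count of 2.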

Additional observations from a re-analysis of the deposited data

How the results depend on the processing

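No paired analysis was possible because the labels give no replicate numbers that pair tumours. With all 4 groups in the fit and the count filter, 343, 1, 41, 526 and 0 genes passed for the palbociclib effect at the end of treatment, the effect after recovery, their difference, and recovery over initial tumours within palbociclib and within vehicle; the same order is used below. Of the members 2, 0, 0, 4 and 0 passed. With no low-count filter 753, 794, 320, 1147 and 1124 genes passed, and 4, 4, 3, 5 and 5 members. With DESeq2 these were 530, 20, 104, 824 and 83 genes, and 4, 0, 0, 5 and 1 members. RLE size factors gave 1 gene within vehicle, and the strict filter 0 genes after recovery. With the mouse share as a covariate 147 genes and 1 member passed at the end of treatment, and 0 genes after recovery. With only the groups compared 689 genes and 4 members passed at the end of treatment, 0 genes after recovery and 1616 within palbociclib, where AREG did not pass (edgeR adjusted p = 0.079). Without vehicle initial tumours 2 and 3 the genes were 95, 0, 4 and 339 in the first 4 comparisons, with 0 members at the end of treatment. The cause was not tested in any of these.

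Leaving out 1 tumour at a time gave 160 to 748, 0 to 1, 12 to 161, 205 to 1425 and 0 to 6 genes, and 1 to 2 members at the end of treatment and 1 to 5 within palbociclib. Some log2 values turned sign when 1 tumour was left out. After recovery AREG ran from -0.70 to 0.12, EPGN from -0.71 to 0.37 and NRG1 from -0.019 to 0.59. In the difference EGFR ran from -0.40 to 0.14, EPGN from -0.28 to 0.79 and ERBB2 from -0.086 to 0.20. Within vehicle HBEGF ran from -0.041 to 0.53 and TGFA from -0.093 to 0.034, and ERBB3 at the end of treatment from -0.041 to 0.20. EPGN after recovery was 0.031 under the strict filter, BTC at the end of treatment -0.023 with the mouse covariate, and without vehicle initial tumours 2 and 3 EGFR was 0.073, ERBB2 -0.022 and ERBB3 -0.047. The number of tumours, 3 a group, limits all of these values.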
